A study of Rattus norvegicus with 50 samples.

Results

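Transcripts of 8 Toll-like receptors (Tlr2 to Tlr9), of the co-receptor Cd14 and of the adaptor Myd88 were followed in rat lung after inhalation of titanium dioxide nanoparticles. These 10 genes were taken by name from the gene spots of the arrays, among 25885 gene names in all, and were represented by 11 probes on 21 spots. Tlr3 had 2 probes and each other gene had 1.

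Male F344 rats, an inbred laboratory strain, were 12 weeks old and breathed through the nose only. Exposed rats received an aerosol of TiO2 P25 nanoparticles at 10 mg/m3 for 6 hours per day, 5 days per week, during 4 weeks, and control rats breathed air. Collection days were counted from the end of exposure, as D0, D3, D28, D90 and D180, which gave 10 groups of 5 rats (Control and Exposed at each day). RNA came from the whole accessory lobe, and each rat had its own one-colour array. In such bulk samples fewer cells of a type and less RNA per cell cannot be told apart. One aerosol concentration and male rats only were studied.

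Toll-like receptors recognise microbial products and molecules released by damaged cells. Tlr2, Tlr4, Tlr5 and Tlr6 act at the cell surface, where Tlr2 pairs with Tlr6 to bind lipopeptides, Tlr4 binds lipopolysaccharide and Tlr5 binds flagellin, while Tlr3, Tlr7, Tlr8 and Tlr9 sense nucleic acids in endosomes. Cd14 hands ligands over to Tlr4 and Tlr2, and Myd88 carries the signal of nearly all of these receptors, Tlr3 being the exception, to kinases that activate NF-kB, a factor that drives inflammatory cytokine and chemokine genes. In the lung such receptors are found on macrophages, neutrophils and epithelial cells.

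Probe sequences are shown for Tlr2 and Tlr6, the receptor pair whose signals were most alike among the 10 genes, so that the likeness can be read against the bases they share. The probe of Tlr2 starts at base 2366 of its transcript and was placed by the array files at chr2:175608160-175608217 (rat build rn4, minus strand). That of Tlr6 starts at base 2559 and lies at chr14:46100547-46100606 (plus strand). Each probe has 60 bases, and the longest run in common, in capitals, was 10 bases.
Tlr2 probe: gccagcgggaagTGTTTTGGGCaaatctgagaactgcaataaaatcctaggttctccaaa
Tlr6 probe: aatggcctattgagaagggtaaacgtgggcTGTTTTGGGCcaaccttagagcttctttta

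The longest run shared by any pair of the 11 probes was 11 bases, between Tlr8 and Tlr9. The upstream sequence of the same pair of receptors is given from RefSeq (build GRCr8), 250 bases before each annotated start, at chr2:171504558-171504807 (minus strand) for Tlr2 and chr14:43715559-43715808 (plus strand) for Tlr6. Capitals mark matches to the kB consensus in Tlr2 and to the PU.1 core GAGGAA, on the reverse strand, in Tlr6.
Tlr2 upstream: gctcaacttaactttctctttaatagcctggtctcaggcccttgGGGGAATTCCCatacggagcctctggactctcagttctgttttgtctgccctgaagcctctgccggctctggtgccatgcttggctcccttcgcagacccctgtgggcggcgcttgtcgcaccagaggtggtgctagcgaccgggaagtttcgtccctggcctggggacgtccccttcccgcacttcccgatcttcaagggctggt
Tlr6 upstream: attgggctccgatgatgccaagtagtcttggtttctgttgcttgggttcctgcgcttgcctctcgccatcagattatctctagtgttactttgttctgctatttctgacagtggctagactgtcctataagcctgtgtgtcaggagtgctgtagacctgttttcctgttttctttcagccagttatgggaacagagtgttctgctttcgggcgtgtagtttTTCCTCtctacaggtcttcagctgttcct

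Both strands of these 250 bases were searched in all 10 genes, each of which had an entry, for the kB consensus, the PU.1 core GAGGAA, the AP-1 motif TGANTCA and an interferon response motif (GAAA repeated after a gap of 2 bases). Tlr2 held 2 overlapping kB matches, starting 206 and 205 bases before the start (positions -206 and -205), and the other 9 genes held none. A kB match was present in 3.54% of 33469 upstream regions of the same length. The PU.1 core occurred in Tlr3, Tlr4, Tlr6, Tlr7, Tlr8, Tlr9 and Cd14, and in 23.3% of all regions. Myd88 held the AP-1 motif (6.34% of all regions) and the interferon response motif (3.41%), and Tlr9 held the AP-1 motif. A match describes letters in the window and not a bound site.

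The median processed signal of an array ran from 198 to 473 linear fluorescence units, and 68.7% to 84.5% of its gene spots were well above background by the mark of the extraction software. D0, D3 and D28 shared 4 slides and D90 and D180 lay on the other 3, with 1 exception, exposed rat 1 of D3, on a slide of the later days. Exposed and control rats were compared within a day, and levels at D90 and D180 were not tested against earlier days. All 8 lung epithelial markers examined, surfactant protein genes among them, were well above background on all 50 arrays.

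Values are normalized log2 signals, so that a difference of 1 is a doubling, and they can be compared between rats for a given gene but not between genes, since each probe has its own brightness. Of the 10 genes, 9 passed the filter on dim probes, and their signal exceeded the negative controls on all 50 arrays, so that passing did not depend on any group. Tlr9 did not pass, with a signal above the negative controls on 3 of 50 arrays and well above background on none. Genes were called differentially expressed (DEGs) when the limma adjusted p was under 0.05 and exposed and control means differed 1.5-fold or more, fitted over all 25208 genes that passed.

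Tlr2 and Cd14 were over-expressed in exposed lungs at D0 and D3 and at no later day. Tlr6 and Myd88 were higher on the same days by less than 1.5-fold. The other 5 genes tested, namely Tlr3, Tlr4, Tlr5, Tlr7 and Tlr8, were not called at any day. Thus 2 of the 9 genes tested were DEGs at D0 and at D3, where 4.28% and 3.48% of all genes were. With the adjusted p alone and no fold limit, 4 of 9 passed at D0 and at D3, against 13.5% and 10.4% of all genes.

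**Figure D1:**
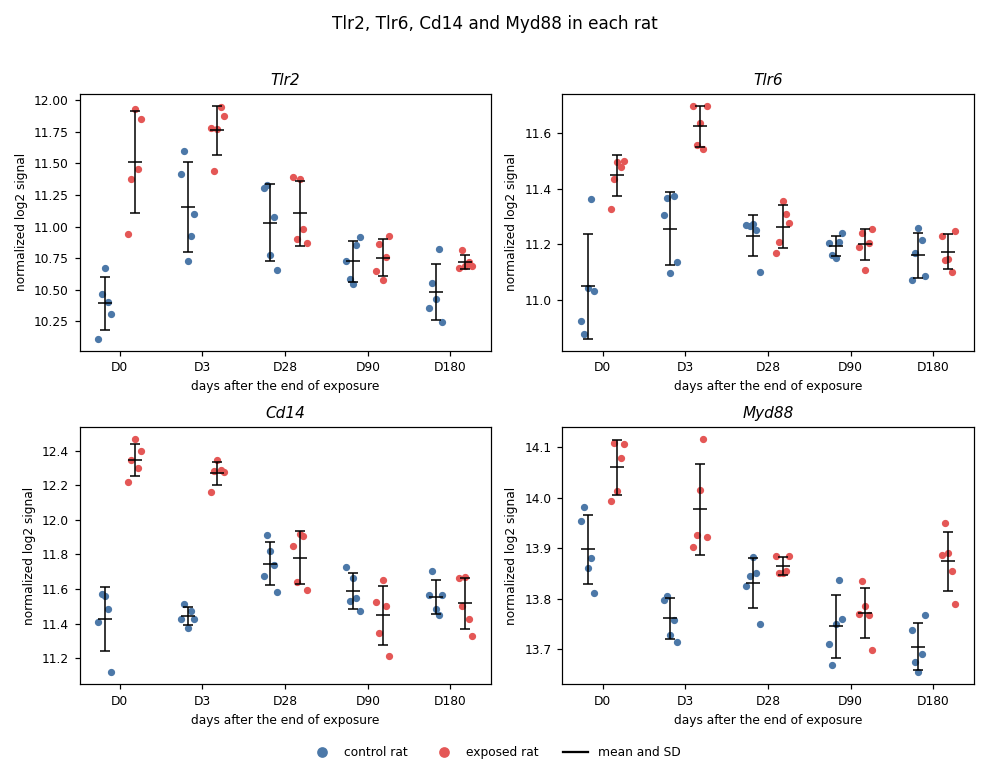
Normalized log2 signal (vertical axis, a separate scale for each gene) of Tlr2, Tlr6, Cd14 and Myd88 in each rat by day after the end of exposure (horizontal axis). Blue points are control rats, red points exposed rats, and black bars the mean and SD of 5 rats. At D0 and D3 the 5 exposed rats lie above the 5 control rats for Cd14 and Myd88, and from D28 the Cd14, Tlr2 and Tlr6 values of both groups overlap.

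Among the surface receptors, Tlr2, which recognises lipopeptides and triggers NF-kB signalling, gave the largest difference at D0. At D0 the signals of control rats 1 to 5 were 10.11, 10.47, 10.67, 10.40 and 10.31, and those of exposed rats 1 to 5 were 10.94, 11.38, 11.93, 11.45 and 11.85. All 5 exposed rats lay above all 5 controls, and the exposed rats were the more scattered group (SD 0.40 against 0.21). Tlr2 was higher in exposed rats by 1.12 on the log2 scale (SE 0.16, 2.17-fold, limma adjusted p = 6.54e-07). With slide as a block the difference was 1.08 (SE 0.09), and it was positive on each of 4 slides, from 0.73 to 1.46.

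At D3 the Tlr2 signals were 11.41, 11.60, 10.73, 10.92 and 11.10 in control rats and 11.78, 11.44, 11.78, 11.95 and 11.87 in exposed rats. The groups overlapped, as exposed rat 2 lay below control rat 2. The difference was 0.61 (SE 0.16, 1.53-fold, limma adjusted p = 0.00632), just past the fold limit. The call was lost, at 0.50 to 0.58, when control rat 3 or 4 or exposed rat 4 or 5 was left out. It was also lost when only the 10 arrays of D3 were fitted (adjusted p = 0.0976), whereas with slide as a block the difference was 0.65 (adjusted p = 3.83e-06).

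From D28 on, no difference in Tlr2 between exposed and control rats passed the test. The differences were 0.08 at D28, 0.03 at D90 and 0.24 at D180 (SE 0.16 at each day), with limma adjusted p between 0.855 and 1.0. At D180 the exposed rats ranged from 10.68 to 10.81, inside the control range of 10.25 to 10.82. The exposure effect on Tlr2 was smaller than at D0 by 1.04 at D28 (SE 0.22, limma adjusted p = 0.00287), by 1.09 at D90 (adjusted p = 0.00114) and by 0.88 at D180 (adjusted p = 0.0113), each called. Both groups entered the drop at D28, as the control mean rose from 10.39 at D0 to 11.03 and the exposed mean fell from 11.51 to 11.11. The call at D28 was lost in a fit of the D0 and D28 arrays alone (adjusted p = 0.0667). Tlr2 and Cd14 were the 2 of 9 genes with a called change of effect at each of these days, where 1.61%, 2.17% and 2.25% of all genes had one. The effect at D3 minus that at D0 was -0.51, which was not past the threshold (adjusted p = 0.403). None of the 9 genes had a called change of effect between these days by limma, against 0.678% of all genes, and 0.928% with the adjusted p alone. At an unadjusted p under 0.05 there was 1 (Tlr2), against 9.84% of all genes.

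Tlr6, the partner of Tlr2 in binding diacylated lipopeptides, was higher in exposed rats by 0.40 at D0 (SE 0.06, 1.32-fold, limma adjusted p = 9.31e-06) and by 0.37 at D3 (SE 0.06, 1.29-fold, adjusted p = 5.1e-05), under the fold limit at both days. In a fit of the D0 arrays alone the adjusted p was 0.0511. At D3 its signals were 11.30, 11.37, 11.10, 11.37 and 11.13 in control rats and 11.70, 11.56, 11.64, 11.54 and 11.70 in exposed rats, with no overlap. At D0 control rat 4, at 11.36, lay above exposed rat 1, at 11.33, and the other 4 exposed rats, at 11.44 to 11.50, lay above all controls. From D28 to D180 the differences were between 0.01 and 0.03 (SE 0.06). The exposure effect on Tlr6 was smaller than at D0 by 0.37 at D28 (adjusted p = 0.0141), 0.39 at D90 (adjusted p = 0.00495) and 0.39 at D180 (adjusted p = 0.00596), under the fold limit, and none of these passed when only the arrays of D0 and the later day were fitted (adjusted p = 0.178, 0.0544 and 0.0772). With the adjusted p alone, 3 of 9 genes (Tlr2, Tlr6 and Cd14) passed at each of these days, against 2.61%, 3.77% and 3.99% of all genes.

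Cd14, which lacks a signalling tail and presents lipopolysaccharide to Tlr4 and lipopeptides to Tlr2, varied less between rats than Tlr2. At D0 control rats were at 11.41, 11.57, 11.56, 11.49 and 11.12, and exposed rats at 12.22, 12.35, 12.47, 12.30 and 12.40. At D3 control rats were at 11.43, 11.52, 11.37, 11.48 and 11.43, and exposed rats at 12.16, 12.28, 12.34, 12.29 and 12.28. At both days every exposed rat lay above every control rat.

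The differences in Cd14 were 0.92 at D0 (SE 0.08, 1.89-fold, limma adjusted p = 1.33e-11) and 0.83 at D3 (SE 0.08, 1.77-fold, adjusted p = 4.28e-10). On the 4 slides taken singly they ran from 0.84 to 0.96 at D0 and from 0.81 to 0.91 at D3, and Cd14 remained called at both days whichever array was left out. The effect did not differ between D0 and D3 beyond its error (change of -0.09, SE 0.12, adjusted p = 0.892).

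By D28 the Cd14 groups overlapped, with means of 11.75 ± 0.13 in controls and 11.78 ± 0.15 in exposed rats (SD, n = 5). The difference was 0.04 at D28, -0.14 at D90 and -0.04 at D180 (SE 0.08). The drop of the exposure effect from D0 was called at each of these days, at 0.88 (SE 0.12, limma adjusted p = 1.25e-06), 1.06 (adjusted p = 1.08e-08) and 0.95 (adjusted p = 1.75e-07).

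Myd88, the adaptor downstream of the receptors and of the interleukin-1 receptor, was higher in exposed rats by small amounts. At D0 control rats were at 13.95, 13.98, 13.86, 13.88 and 13.81, and exposed rats at 13.99, 14.11, 14.01, 14.08 and 14.11. The difference was 0.16 at D0 (SE 0.04, 1.12-fold, limma adjusted p = 0.00736) and 0.22 at D3 (1.16-fold, adjusted p = 0.000433), both under the fold limit. All exposed rats lay above all controls at both days. On the 4 slides taken singly the D0 difference ran from 0.03 to 0.25. Fitted on the arrays of D0 or of D3 alone, Myd88 did not pass (adjusted p = 0.251 and 0.143).

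Myd88 was the only 1 of the 9 genes tested to pass the adjusted p at D180, under the fold limit, where 0.893% of all genes passed it. At D28 and D90 none of the 9 did by limma, against 3.88% and 1.05% of all genes. Control rats were at 13.74, 13.67, 13.65, 13.69 and 13.77, and exposed rats at 13.89, 13.95, 13.89, 13.86 and 13.79. The groups did not overlap, with a gap of 0.02 between exposed rat 5 and control rat 5. The difference of 0.17 (SE 0.04, 1.12-fold) had a limma adjusted p of 0.0444, which ran from 0.0263 to 0.179 as each array was left out in turn. Over the alternative settings the difference ran from 0.10 in the deposited matrix (adjusted p = 0.591) to 0.19, and the pass was also lost after normexp correction (0.13, adjusted p = 0.228), with a replicate block (adjusted p = 0.0565) and in a fit of the D180 arrays alone (adjusted p = 0.187). It held with slide as a block (0.15, adjusted p = 0.0071), and the difference was 0.12 to 0.17 on the 3 slides. At D28 and D90 the differences were 0.03 (SE 0.04), and the effect at D180 differed from that at D0 by 0.01 (SE 0.06, adjusted p = 0.993).

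Exposed rats all lay above control rats in 3 of the 10 genes at D0 (Tlr2, Cd14 and Myd88), 3 at D3 (Tlr6, Cd14 and Myd88) and 1 at D180 (Myd88). The shares of all genes with that pattern were 4.75%, 3.35% and 2.76%. At D28 and D90 none of the 10 genes had it, against 2.21% and 2.20% of all genes, and in none of the 10 did all exposed rats lie below all controls, which 3.77%, 3.42%, 1.57%, 1.63% and 1.45% of all genes did at D0, D3, D28, D90 and D180. No gene of the 9 tested was a DEG at D28, D90 or D180 by limma, where 1.33%, 0.381% and 0.321% of all genes were. At an unadjusted p under 0.05 there were 0, 1 (Tlr8, lower in exposed rats) and 1 (Myd88) of 9, against 16.6%, 7.10% and 8.07% of all genes.

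**Figure D2:**
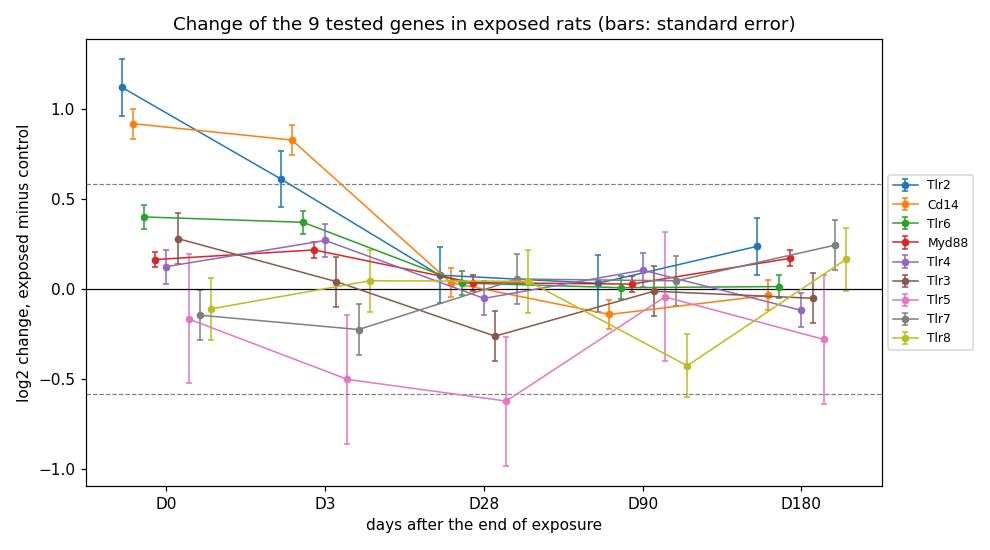
Log2 change (vertical axis, exposed minus control) of the 9 genes tested at each day after the end of exposure (horizontal axis), with bars for the limma standard error and dashed lines at a change of 1.5-fold. Tlr2 and Cd14 lie above the upper line at D0 and D3 and within 0.24 of 0 afterwards, while Tlr5 and Tlr8 have wide bars and stay uncalled.

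Tlr4, the lipopolysaccharide receptor, came nearest to the threshold at D3. Control rats were at 9.38, 9.77, 9.61, 9.61 and 9.61 and exposed rats at 9.59, 9.81, 9.98, 9.88 and 10.05, so that 4 exposed rats lay above all controls. The difference of 0.27 (SE 0.09) missed the threshold (limma adjusted p = 0.0586). It passed at 0.29 with 75th percentile scaling (adjusted p = 0.0361), at 0.27 in the deposited matrix (adjusted p = 0.0418) and at 0.35 with slide as a block (adjusted p = 0.0023), still under the fold limit, and it was positive on all 4 slides, from 0.20 to 0.51. At the other days the Tlr4 differences lay between -0.12 and 0.12.

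Tlr5, the flagellin receptor, followed the slide more than the exposure. Its signals ran from 4.95 to 7.79 over the 50 rats, and differences between slides held 78.4% of the variance. That share includes differences between early and late days, which lay on separate slides, and it overlaps with the 51.5% between groups. It was lower in exposed rats at every day, by 0.04 at D90 to 0.62 at D28 (SE 0.36), and no difference passed the threshold (limma adjusted p of 0.393 or more). With slide as a block the D28 difference was -0.39 (SE 0.23). At D0 control rats alone spanned 5.45 to 7.79, which covers the whole exposed range of 6.09 to 7.24.

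**Figure D3:**
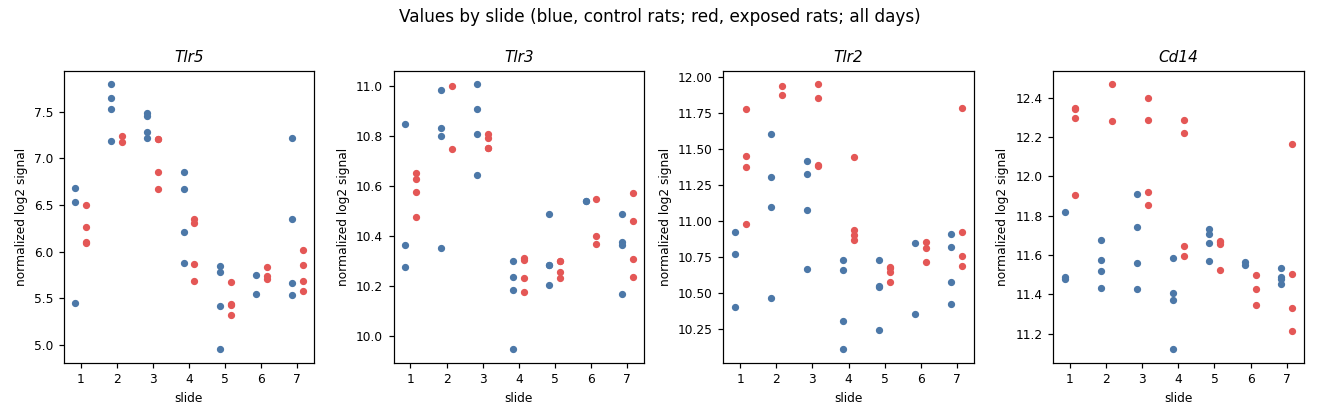
Normalized log2 signal (vertical axis) of Tlr5, Tlr3, Tlr2 and Cd14 by slide (horizontal axis, 7 slides), with control rats in blue and exposed rats in red, all days together. Tlr5 and Tlr3 shift from slide to slide in both groups, with slide means of Tlr5 from 5.48 to 7.43, whereas the highest Cd14 values on slides 1 to 4 are those of exposed rats.

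Among the endosomal receptors, Tlr3, which senses double-stranded RNA and signals without Myd88, was higher by 0.28 at D0 and lower by 0.26 at D28 (SE 0.14), neither past the threshold (limma adjusted p = 0.217 and 0.339). Slides held 73.0% of its variance. With slide as a block the D0 difference was 0.22 (SE 0.07, adjusted p = 0.0108), under the fold limit, and the D28 difference was -0.15 (adjusted p = 0.134). The second, dimmer Tlr3 probe gave 0.35 at D0 (adjusted p = 0.0138, under the fold limit) and -0.14 at D28, and at D3 it gave -0.09 where the brighter probe gave 0.04.

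Tlr7 and Tlr8, sensors of single-stranded RNA that lie side by side on chromosome X, were measured well above background in all 50 rats. Tlr7 ranged from 6.46 to 7.64, and its differences ran from -0.23 at D3 to 0.24 at D180 (SE 0.14). Tlr8 ranged from 5.79 to 7.77, the top value being 1 control rat at D90, and its differences ran from -0.43 at D90 to 0.16 at D180 (SE 0.17). Leaving that control rat out moved the D90 difference of Tlr8 to -0.15. None of these passed the threshold (limma adjusted p of 0.374 or more for Tlr7 and 0.434 or more for Tlr8), and standard errors of this size leave changes under 1.5-fold undetermined.

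Tlr9, the receptor for unmethylated CpG DNA, was not well above background on any array. Its signals lay between 2.39 and 3.00 in 49 rats and at 4.15 in exposed rat 1 of D3, the rat whose array lay on a slide of the later days. No fold change is given for it.

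**Figure D4:**
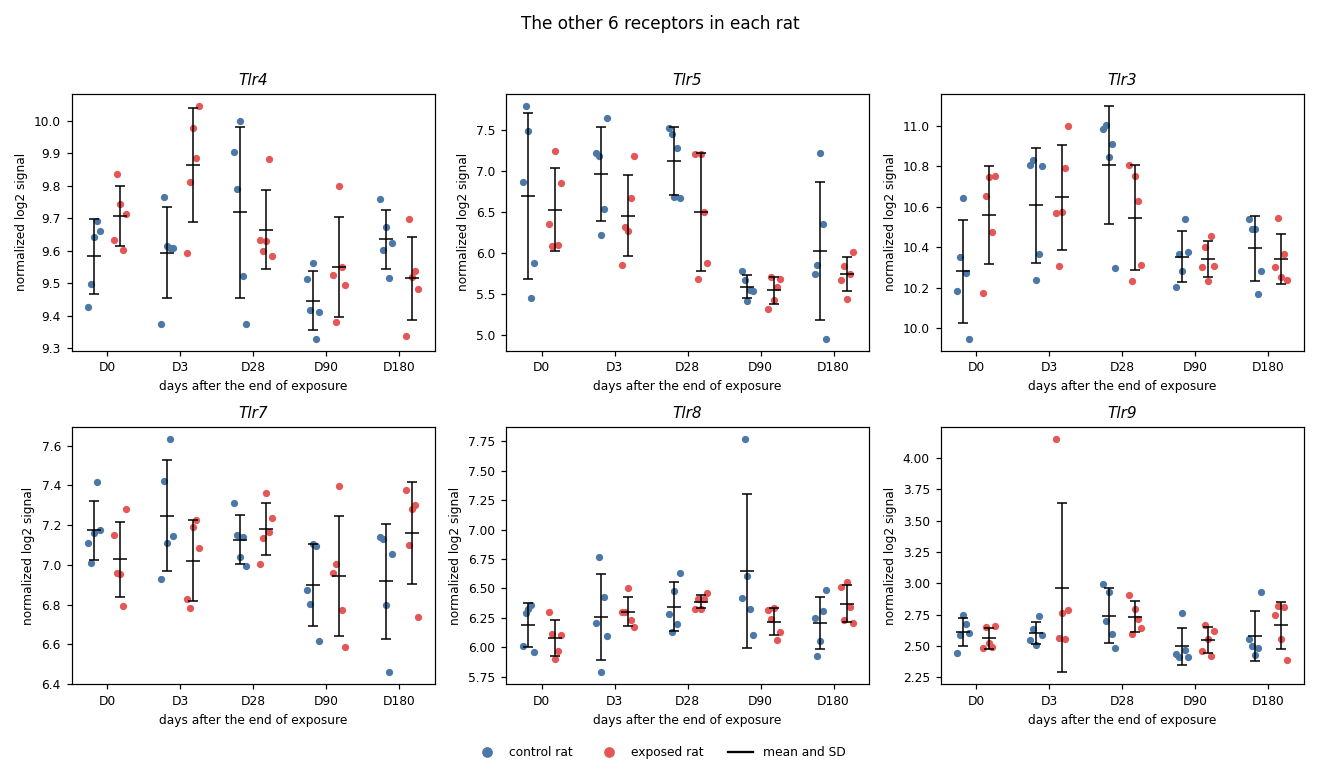
Normalized log2 signal (vertical axis, a separate scale for each gene) of Tlr4, Tlr5, Tlr3, Tlr7, Tlr8 and Tlr9 in each rat by day after the end of exposure (horizontal axis), with control rats in blue, exposed rats in red, and the mean and SD of 5 rats in black. The groups overlap at every day in each of the 6 receptors, and Tlr9 is not above background.

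Control rats also differed between days. Tlr2 rose in control rats from 10.39 ± 0.21 at D0 to 11.15 ± 0.36 at D3 (SD, n = 5), a difference of 0.76 (SE 0.16, 1.69-fold, limma adjusted p = 0.000888) that was positive on all 4 slides, from 0.52 to 0.88. It was 1 of 9 genes called between these control groups, against 2.31% of all genes. At D28 Tlr2 was still above D0 in controls by 0.64 (1.56-fold, adjusted p = 0.0063), which fell under the fold limit, to 0.52, with slide as a block, and it was then also 1 of 9 genes against 2.47% of all genes. When only the arrays of the days compared were fitted, neither was called (adjusted p = 0.0653 and 0.0878). The exposed means of Tlr2 at D3, 11.76 ± 0.19, and at D28, 11.11 ± 0.26, were thus compared with raised control means.

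Cd14 showed a smaller shift in controls. Its control mean was 11.43 ± 0.19 at D0, 11.44 ± 0.05 at D3 and 11.75 ± 0.13 at D28 (SD, n = 5), and D28 exceeded D0 by 0.32 (SE 0.08, limma adjusted p = 0.0107) and D3 by 0.30 (adjusted p = 0.0487), under the fold limit. Tlr3 was higher in controls at D28 than at D0 by 0.53 (adjusted p = 0.0119), Tlr6 higher at D3 than at D0 by 0.21 (adjusted p = 0.0375), and Myd88 lower at D3 than at D0 by 0.14 (adjusted p = 0.0457), each under the fold limit. None of these 5 passed when only the arrays of the days compared were fitted (adjusted p of 0.182 to 0.476), and each missed the threshold with at least 1 single array left out (highest adjusted p of 0.0565 for Tlr3 to 0.179 for Cd14 at D28 against D3). With the adjusted p alone, 3 of 9 genes passed between controls of D3 and D0 and 3 between D28 and D0, against 7.33% and 7.05% of all genes, 1 between D28 and D3 against 1.49%, and 0 between D180 and D90 against 0.0278%. No gene of the 9 was called between controls of D28 and D3 or of D180 and D90 by limma, where 0.639% and 0.0198% of all genes were. At an unadjusted p under 0.05, 1 gene passed in each case (Cd14 and Tlr8), against 8.30% and 4.84% of all genes.

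Ordered by their means, the 10 groups gave Cd14 a clear top pair, exposed rats at D0 and at D3, which did not differ from each other beyond their SD and stood 0.49 above the next group, exposed rats at D28. For Tlr6 the top groups were exposed rats at D3 and at D0, separated by 0.18 from each other and by 0.18 from the next group, both gaps above the SD of the groups, and the remaining 8 groups did not differ from their neighbours beyond their SD. Tlr2 had the same top groups, but its successive means differed by less than the larger SD of each pair, apart from exposed and control rats at D180. Myd88 had exposed rats of D0 and D3 on top, followed within 0.08 by control rats of D0.

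Over the 50 arrays, with slide differences removed and group differences kept, Tlr2 and Tlr6 had a Pearson correlation of 0.92. Cd14 correlated at 0.80 with Tlr2, at 0.79 with Tlr6 and at 0.72 with Myd88. Myd88 correlated at 0.57 with Tlr2 and at 0.51 with Tlr6. Tlr3 correlated at 0.53 with Tlr2, at 0.52 with Tlr6, at 0.47 with Cd14 and at 0.11 with Myd88. Tlr4, Tlr5, Tlr7 and Tlr8 correlated with each other and with the remaining genes tested at between -0.27 and 0.20. These values describe 50 arrays that share slides and exposure groups, and they carry no test.

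Among all other genes with a symbol, the closest to Tlr2 in the same measure were Ncf4, a subunit of the phagocyte NADPH oxidase (r = 0.96), P2ry6, a nucleotide receptor (0.95), and Pak1ip1 (0.93). The closest to Tlr6 were Ncf4 (0.94), Ms4a6a (0.91) and Ripk3, a kinase of necroptosis (0.91). Cd14 was closest to Gch1, the first enzyme of tetrahydrobiopterin synthesis (0.94), the chemokine Ccl17 (0.94) and Lcn2, which binds bacterial siderophores (0.93). Myd88 was closest to C4bpb (0.86), the decoy interleukin-1 receptor Il1r2 (0.84) and Slc16a6 (0.84). For the remaining 5 genes tested, the closest gene reached 0.72 for Tlr3 (Trim69), 0.70 for Tlr4 (Gdpgp1), 0.63 for Tlr5 (Actl9), 0.68 for Tlr7 (Srgap3) and 0.53 for Tlr8 (Arl5b).

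The rest of the pathway was read from 4 lists with 71 genes, of which 68 were tested, while Tlr1, Rel and Relb were not analysed here. At D0, 16 of the 68 were over-expressed and none under-expressed, where 2.76% of all genes were over-expressed. These 16 include Il6 and Tlr11, which were not well above background in any control rat of D0. At D3, 13 of 68 were over-expressed, against 1.97% of all genes. From D28 to D180 no gene of the 68 was over-expressed by limma, against 0.865%, 0.250% and 0.242% of all genes, and 1 was under-expressed, at D90. Blocking on slide gave 4 over-expressed genes of the 68 at D28 (Cxcl10, Cxcl2, Tlr10 and Tlr11). In that fit 310 of all 25208 genes were over-expressed at D28. The lists were chosen with earlier results of these data known, so these counts are a description.

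Target genes of the pathway made up most of these calls. Of 28 feedback and target genes, 11 were over-expressed at D0, Il6 at background level among them, and 10 at D3. The median log2 change was 0.50 and 0.33 against -0.01 for all genes at both days. Ccl2, a monocyte chemokine, rose by 2.55 at D0 and 2.07 at D3, and the neutrophil chemokines Cxcl1 and Cxcl2 rose by 1.72 and 1.82 at D0 and by 1.40 and 1.28 at D3. Tnf rose by 1.77 and 1.31, the mitochondrial superoxide dismutase Sod2 by 1.51 and 0.68, and Cxcl10, an interferon-induced chemokine, by 1.19 and 2.29. Zc3h12a, a ribonuclease that degrades cytokine transcripts, rose by 1.39 and 0.89, and Bcl3, a nuclear regulator of NF-kB, by 0.73 and 0.76.

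Ccl3 (0.87) and Ccl4 (0.70) were called at D0 only in this list, and Il1b (0.65) and the inhibitor Nfkbie (0.60) at D3 only, all by limma, with the differences between these days not compared gene by gene. Il6 passed the test at D0, but it was not well above background on any array of that day and no fold change is given. At D28 the list had a median of 0.20 and no call, and at D90 it had a median of -0.14, with Cxcl1 lower in exposed rats by 1.06 (SE 0.25, adjusted p = 0.0203). Blocking on slide gave 2 over-expressed genes of the 28 at D28 and 2 under-expressed ones at D90. In that fit 310 of all 25208 genes were over-expressed at D28 and 57 under-expressed at D90. Nfkbie was not called with slide as a block.

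The signalling genes held 1 over-expressed gene of 22 at D0 and 2 of 22 at D3, against 2.76% and 1.97% of all genes. Of 22 tested between the receptors and the NF-kB and IRF factors, Irf5, an interferon regulatory factor that binds Myd88, rose by 0.63 at D0, and Irf7 (0.79) and the kinase gene Ikbke (0.63) rose at D3. Ikbke was not called when slide was a block. The median change of this list was 0.10 at D0 and 0.06 at D3. Of 14 co-receptors, chaperones and decoys, Ly86, the secreted partner of the receptor-like protein Cd180, rose by 0.69 at D0 and was the only call, though Lbp, which brings lipopolysaccharide to Cd14, was called at D3 with slide as a block, and the median was 0.07 at D0 and 0.17 at D3.

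Of 4 further Toll-like receptors, Tlr10, Tlr11 and Tlr12 were called at D0 and Tlr12 again at D3 by limma. With slide as a block Tlr10 was also called at D3, and Tlr10 and Tlr11 at D28. Tlr12 rose by 0.87 and 0.67, with 4 of 5 control arrays and all 5 exposed arrays well above background at D0. Tlr10 was well above background in 1 of 5 control and 5 of 5 exposed rats at D0, with means of 4.39 and 5.30 and an adjusted p of 0.00175. Tlr11 was well above background in 0 of 5 control and 3 of 5 exposed rats, with means of 3.49 and 5.05 (limma adjusted p = 0.000864). As the control rats and some exposed rats were not well above background, no fold change is given for Tlr11. Tlr13 was not called at any day.

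**Figure D5:**
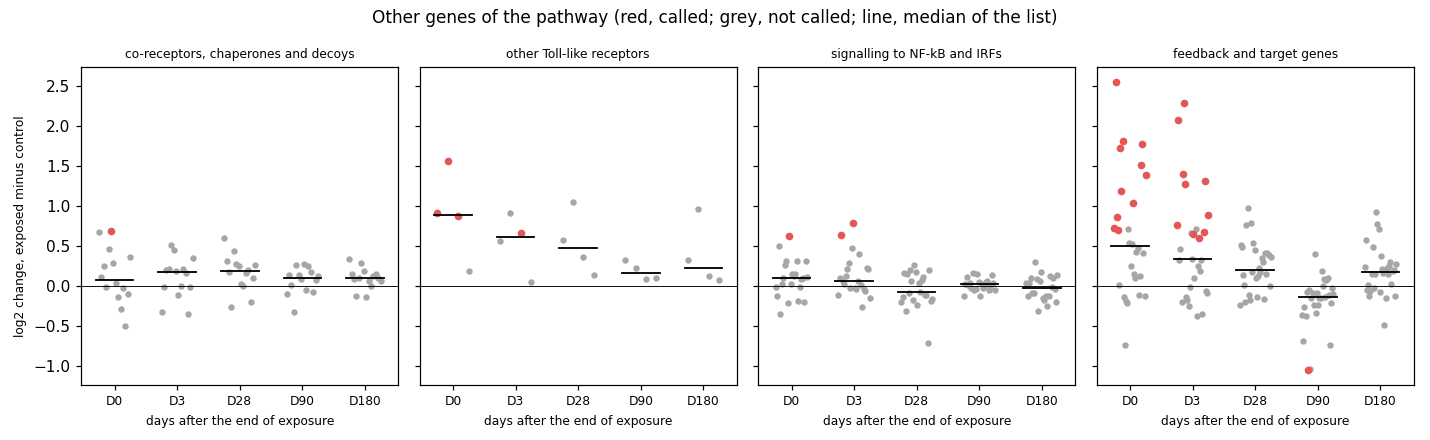
Log2 change (vertical axis, exposed minus control) of 68 other genes of the pathway in 4 lists by day after the end of exposure (horizontal axis). Red points are DEGs, grey points genes not called, and black lines the median of a list. Target genes hold 11 of the 16 over-expressed genes at D0 and 10 of 13 at D3, and none is over-expressed from D28 on in this fit without a slide block. At D0 Il6 and Tlr11, counted among the 16, were not well above background in any control rat.

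Some markers of immune cells differed on the same days as Tlr2, Tlr6, Cd14 and Myd88. Of 13 neutrophil markers, 3 were over-expressed at D0 and D3 (S100a8, S100a9 and Itgam), against 2.76% and 1.97% of all genes. The list was not uniform at D0, with 7 of 13 differences above 0, 6 below 0 and a median of 0.18, and Fcgr3a was lower by less than 1.5-fold (-0.37, adjusted p = 0.000408, and -0.29 at D3). At D3, 11 of 13 were above 0, with a median of 0.35. The summed linear signal of the list was 93147 to 135440 in exposed rats at D0 against 36133 to 52550 in controls, and 92794 to 130264 against 32571 to 55519 at D3, but S100a8 and S100a9 made up 72.7% to 94.4% of it. At D28 S100a9 and Itgam were called, 2 of 13 against 1.33% of all genes. At that day 7 of 13 differences were below 0 (median -0.11), and the sum was 54776 to 75099 in exposed rats against 33135 to 53919 in controls. Of these 13 markers 9 were well above background on all 50 arrays, the exceptions being Mmp9, Ngp, Mpo and Elane.

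Over all genes, 4.28%, 3.48%, 1.33%, 0.381% and 0.321% were called at D0, D3, D28, D90 and D180. With the adjusted p alone, 13.5% passed at D0 and 10.4% at D3. Of 8 markers of monocytes and interstitial macrophages, Ccr2 was called at D0 (1.14), and 4 of 8 passed the adjusted p alone at D0 and at D3. At D0 and at D3, 6 of 8 differences were above 0 and 2 below, with medians of 0.37 and 0.36. The summed signal of these 8 markers overlapped between groups, at 209108 to 565716 in exposed and 203263 to 532179 in control rats at D0. Of 8 alveolar macrophage markers none was called at any day by limma, but Cd68 was over-expressed at D0 with slide as a block, and their sum at D0 was 85738 to 118157 in exposed and 82280 to 103096 in control rats. Of 7 T cell markers Cd3g and Cd5 were over-expressed at D0, and of 6 B cell markers Cd79b at D0 and Blk at D3. At D0 all 7 T cell differences were above 0 (median 0.51). T cell sums at D0 were 4347 to 5568 in exposed and 2805 to 4083 in control rats. All 6 B cell differences were above 0 at D0 (median 0.50). At D3, 6 of 7 T cell and 4 of 6 B cell differences were above 0. Of 6 endothelial markers Tek was under-expressed at D0, a call lost with slide as a block. All 6 endothelial differences were below 0 at D0 and D3 (medians -0.38 and -0.36). Endothelial sums overlapped at D0 and were 80034 to 98121 in exposed and 107304 to 121422 in control rats at D3. No epithelial marker was called, but with the adjusted p alone 2 of 8 were higher and 1 was lower in exposed rats at D0. Sftpa1 differed by 0.48 (limma adjusted p = 2.18e-06) and Ager by -0.39 (adjusted p = 0.0284). The part of these cell populations in the changes of Tlr2, Tlr6, Cd14 and Myd88 was not tested.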

How the data were processed

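Each of the 50 rats had 1 Agilent one-colour array, labelled from 100 ng of RNA. The authors deposited, per the file headers, the spot intensity read by Agilent Feature Extraction 11.0.1.1, of which the background-subtracted processed signal was used, and a series matrix of median spot intensity, whose columns show quantile normalization, used as an alternative. Control spots and outlier flags were left out, replicate spots were averaged as log2 signals, 29549 probes were kept whose signal exceeded the 95th percentile of negative control spots on 5 or more arrays, and arrays were quantile normalized. The brightest probe stood for a gene. Groups came from the sample labels.

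Group means were fitted with limma 3.58.1 in R 4.3.3 over 25208 genes, with two-sided p-values adjusted by the Benjamini-Hochberg method. P-values weigh a difference against the spread between rats within groups, pooled over all arrays fitted. Slide differences stay in that spread unless slide was a block. Alternatives were other scalings, filters, slide as a block, a replicate block and leaving out each array. Scripts were tested on simulated data. Of the pathway lists, genes called in any exposure comparison were named, and for each of the 10 genes the 3 most alike by slide-adjusted correlation. The genes and lists were chosen with earlier results of these data known. The number of arrays limits the precision.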

Additional observations from a re-analysis of the deposited data

Results flagged for a closer look

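The exposure effect differed between a later day and D0 in Tlr2 and Cd14. For Cd14 the interaction was -0.88 at D28, -1.06 at D90 and -0.95 at D180 on the log2 scale (limma adjusted p = 1.25e-06, 1.08e-08 and 1.75e-07). For Tlr2 it was -1.04, -1.09 and -0.88 (adjusted p = 0.00287, 0.00114 and 0.0113). From D0 to D28 the Tlr2 mean rose in control rats, from 10.39 to 11.03, and fell in exposed rats, from 11.51 to 11.11.

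In 6 of 100 combinations of gene and group, 1 rat stood far from the other 4, and chance flags about 1 in 20 groups. For Tlr4, exposed rat 4 at D28 was at 9.88 with the others at 9.59 to 9.63. Control rat 5 at D28 was low in both Tlr6, at 11.10 against 11.25 to 11.27, and Tlr3, at 10.30 against 10.85 to 11.01. Tlr9, not above background, was at 4.15 in exposed rat 1 of D3 (others 2.55 to 2.79), at 2.76 in control rat 3 of D90 (others 2.41 to 2.47) and at 2.93 in control rat 5 of D180 (others 2.43 to 2.56).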

How the results depend on the processing

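Tlr2 and Cd14 at D0, Cd14 at D3, and the drop of both effects from D0 to D90 and D180 were called under all 8 alternative settings and with each array left out. The count of genes called at D3 went from 2 to 1 when only the arrays of that day were fitted, and ranged from 1 to 2 as single arrays were left out. Fitted on the arrays of both days alone, the drop from D0 to D28 was called in 1 gene (Cd14), and between controls of D3 and D0 and of D28 and D0 in 0 genes each. The last count was also 0 with slide as a block, and 0 to 2 as single arrays were left out, Tlr3 being called without control rat 3 of D0 or control rat 5 of D28 and Tlr2 lost without control rat 1 of D0 or control rat 1 or 2 of D28. With no fold limit the counts were 4 at D0, 4 at D3 and 1 at D180 for exposed against control, and 3, 3 and 1 for controls of D3 against D0, D28 against D0 and D28 against D3. Differences near 0 changed sign at D90, with Tlr5 at 0.0096, Tlr6 at -0.012 and Myd88 at -0.0067 after normexp correction and Tlr6 at -0.014 in the deposited matrix. With single arrays left out, the D28 difference was -0.0053 to 0.082 for Cd14, -0.016 to 0.15 for Tlr2 and -0.00082 to 0.057 for Tlr6. The D90 difference was -0.014 to 0.078 for Tlr2, -0.087 to 0.011 for Tlr5 and -0.0074 to 0.029 for Tlr6, and the D180 difference was -0.074 to 0.010 for Cd14 and -0.0098 to 0.037 for Tlr6.

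With replicate block, a term for equal replicate numbers, 2 genes were called at D0 and 2 at D3, and no call at 1.5-fold changed. The labels do not say that numbers pair rats, and deviations of equally numbered exposed and control rats correlated at -0.34 to 0.45, above 0.1 in 8 of 25 pairs.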
